A study of Mus musculus with 6 samples.

Results

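The genes described are 53 that mouse cells use to sense DNA breaks, signal them and repair them. They were listed by name with earlier results of these data known, and each name matched 1 row of a deposited table of 54532 genes. The group holds kinases and checkpoint clamps, proteins that gather on chromatin around a break, the BRCA1 partners, enzymes that process broken ends, proteins that help strand exchange, Fanconi anaemia proteins, nucleases and the end joining machinery. Messenger RNA was sequenced in 6 libraries made from suspensions of testis cells labelled STRA8+, the protein that marks germ cells entering meiosis. There were 3 libraries from conditional knockout mice and 3 from mice labelled Cre, the recombinase, which are called controls here. The labels give no strain, age, Cre driver or deleted gene, and say nothing of separate animals, so the p-values reflect how far these libraries spread, which may be a technical spread. The study's title names BCAS2, a splicing factor of the PRP19 complex, and hnRNPH1, an RNA-binding splicing regulator, and concerns break repair and synapsis in meiotic prophase.

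A DNA break is first bound by the MRE11-RAD50-NBN complex, which recruits the kinase ATM; single-stranded DNA left after the ends are trimmed recruits ATR with ATRIP. Both kinases phosphorylate the histone variant H2AX and the checkpoint kinases CHK1 and CHK2. In testis, breaks are made on purpose at the start of meiosis and are repaired on the partner chromosome by homologous recombination, and ATR signalling with MDC1 spreads H2AX phosphorylation over the X and Y chromosomes, which remain largely unpaired. End joining needs no partner chromosome and serves most somatic cells.

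Levels are the authors' FPKM, which count fragments against a gene's length in kilobases and against a divisor of the library in units of 1000000. A whole number of reads could be recovered behind every value, 14770320 to 15204127 reads per knockout library and 14532453 to 16963019 per control library. The divisor was 1.37 to 1.42 times that total in the knockout libraries and 0.691 to 0.774 times in the controls, so the deposited scale sets knockout values lower, relative to control values, than shares of reads do. Genes averaging 1 FPKM or more were tested with limma on log2(FPKM + 0.5), knockout over control, and a gene is said to have risen or fallen at an adjusted p below 0.05 over the 16791 genes tested. Fold changes on that scale understate changes of low genes. Over all genes tested, log2 fold changes had a median of -0.41, and it rose by 1.12 when each library's FPKM was rescaled to a sum of 1000000, by 0.94 under quantile normalization and by 0.83 when each library was divided by its own total of reads. For genes of the 53 whose call those scalings changed, log2 fold changes on the rescaled, quantile and read-total scales are given in that order. Bcas2 had 4.78, 4.38 and 5.40 FPKM in knockout libraries, against 19.8, 19.3 and 20.5 FPKM in control libraries. Hnrnph1 had 128.8, 155.8 and 135.7 FPKM in the knockout, against 61.2, 67.5 and 62.7 FPKM in the control.

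Levels of cell type markers differed between the groups, and these values stand beside every result below. Calls of markers are on the deposited scale, where 36.2% of all genes tested rose and 50.4% fell. A list of 10 spermatid markers summed to 4.10 to 7.91 FPKM in the knockout libraries and to 17730.4 to 20656.8 FPKM in the controls, and all 10 fell. Markers of pachytene and diplotene spermatocytes summed to 50.5 to 73.0 FPKM in the knockout libraries and to 5425.5 to 6561.9 FPKM in the controls, and all 10 fell. Mybl1 among them had -0.02, -0.34 and -0.28 on the rescaled, quantile and read-total scales and did not pass on the first. Leptotene and zygotene markers rose in 7 of 10 genes and fell in 1, with sums of 822.2 to 1045.7 FPKM in the knockout libraries and 597.6 to 680.9 FPKM in the controls. The fall was that of Smc1b, at -0.3, which was called higher on the rescaled, quantile and read-total scales at 0.88, 1.32 and 0.61. Sycp1 and Hormad1 did not pass as deposited. Both were called higher on those scales, Sycp1 at 0.78, 1.19 and 0.51 and Hormad1 at 1.41, 1.8 and 1.14. Markers of differentiating spermatogonia and preleptotene cells rose in 9 of 10 and fell in 1, with sums of 792.4 to 884.8 FPKM against 488.9 to 578.0 FPKM in the controls. Most of each control sum came from the gene that fell, Dmrtb1. It had 398.2, 330.2 and 436.5 FPKM in control libraries and 22.9, 26.7 and 28.5 FPKM in knockout libraries. The labelled marker Stra8 had 125.4, 136.8 and 136.2 FPKM in knockout libraries and 11.5, 22.6 and 17 FPKM in control libraries. All 10 Sertoli cell markers rose, with sums of 1038.6, 682.0 and 591.5 FPKM in knockout libraries, against 136.3, 247.5 and 312.9 FPKM in control libraries. Of 9 macrophage markers tested 3 rose, and knockout replicate 1 had the highest sum, 293.2 FPKM, against 58.0 to 99.3 FPKM in the controls. Undifferentiated spermatogonia markers gave 4 higher and 2 lower of 7 tested, Leydig cell markers 2 higher and 6 lower of 9, and none of 4 peritubular and endothelial markers passed. No marker on these lists was at 0 in every library of a group. The part of these differences in the results below was not tested, and in such bulk samples fewer cells of a type and less RNA per cell cannot be told apart.

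**Figure D1:**
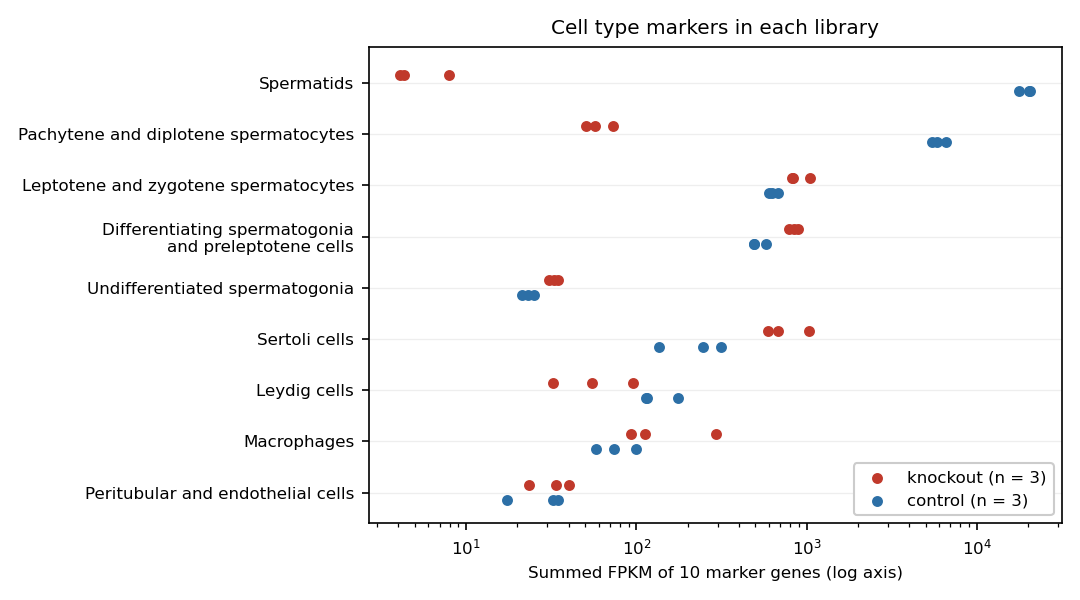
Summed FPKM of 10 marker genes for each of 9 cell types on a log axis, 1 point per library, knockout in red above control in blue. Spermatid markers summed to 4.10 to 7.91 FPKM in the knockout libraries and at least 17730.4 FPKM in every control library, while Sertoli markers were higher in every knockout library.

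Of the 53 genes, 52 passed the filter and were tested; Fancb was below it. A total of 28 rose, 10 fell and 14 did not pass. Among all genes tested 36.2% rose and 50.4% fell. The median log2 fold change of the 52 genes was 0.37, against -0.41 over all genes tested, and 43 of the 52 lay above that overall median. With a further requirement that log2 values lie 1 or more from 0, 15 rose and 5 fell, where the shares of all genes were 23.3% and 41.1%. The groups did not overlap in 41 of the 52 genes, a smaller share than the 88.0% of all genes tested. The 28 that rose also rose under all 3 other scalings and with size factors from the genes tested, a result that 36.2% of all genes gave. Slx4, Fancg and Lig4 fell under all of them, where 34.2% of all genes did. On the rescaled FPKM 47 of the 52 genes were called higher and 3 lower, where 54.2% and 36.2% of all genes were. Quantile normalization called 46 higher and 5 lower, where 52.1% and 36.8% of all genes were, and division by total reads called 45 higher and 5 lower, where 50.6% and 38.9% were. All 14 genes that did not pass as deposited were called higher on each of these 3 scales. With size factors from the genes tested 29 were higher and 10 lower, where 37.0% and 49.8% were. The tested genes had 15 to 10776 reads in a library, and their standard errors ran from 0.0918 to 0.223 with a median of 0.133.

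**Figure D2:**
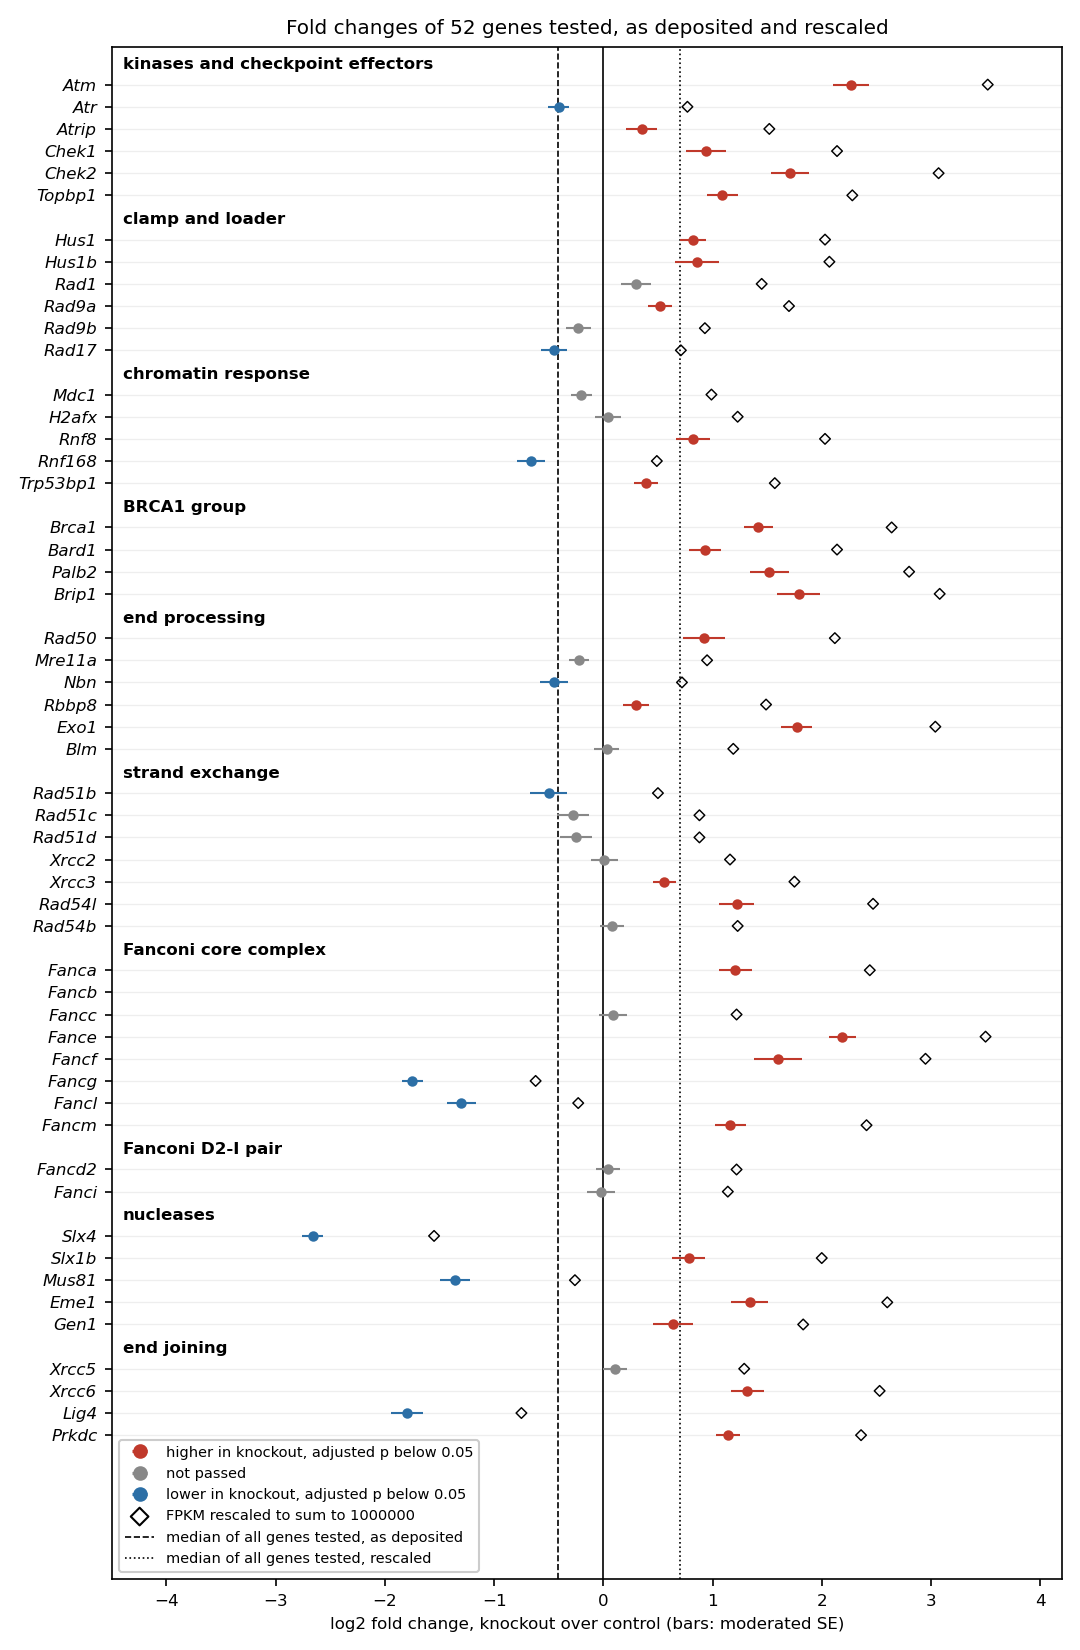
Log2 fold change of each of the 52 genes tested, knockout over control, grouped by role, with the moderated SE as a bar; diamonds give the same genes with FPKM rescaled to sum to 1000000, and the dashed and dotted lines give the median of all genes tested on the 2 scales. Most genes lie right of the dashed line at -0.41, and Slx4, Lig4, Fancg, Fancl and Mus81 stay left of 0 on both scales.

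The order of levels within the group changed as well. Mdc1 had the highest mean of the 53 genes in both groups, 43.7 FPKM in the knockout and 50 FPKM in the controls. Slx4 was ranked 30 in the knockout and 2 in the controls, and Fancg 19 in the knockout and 4 in the controls. In the other direction Atm was ranked 5 in the knockout and 30 in the controls, Topbp1 4 in the knockout and 13 in the controls, and Brca1 10 in the knockout and 25 in the controls. The median of the 53 means was 7.11 FPKM in the knockout and 4.49 FPKM in the controls, with 17 genes at 10 FPKM or more in the knockout and 15 in the controls.

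**Figure D3:**
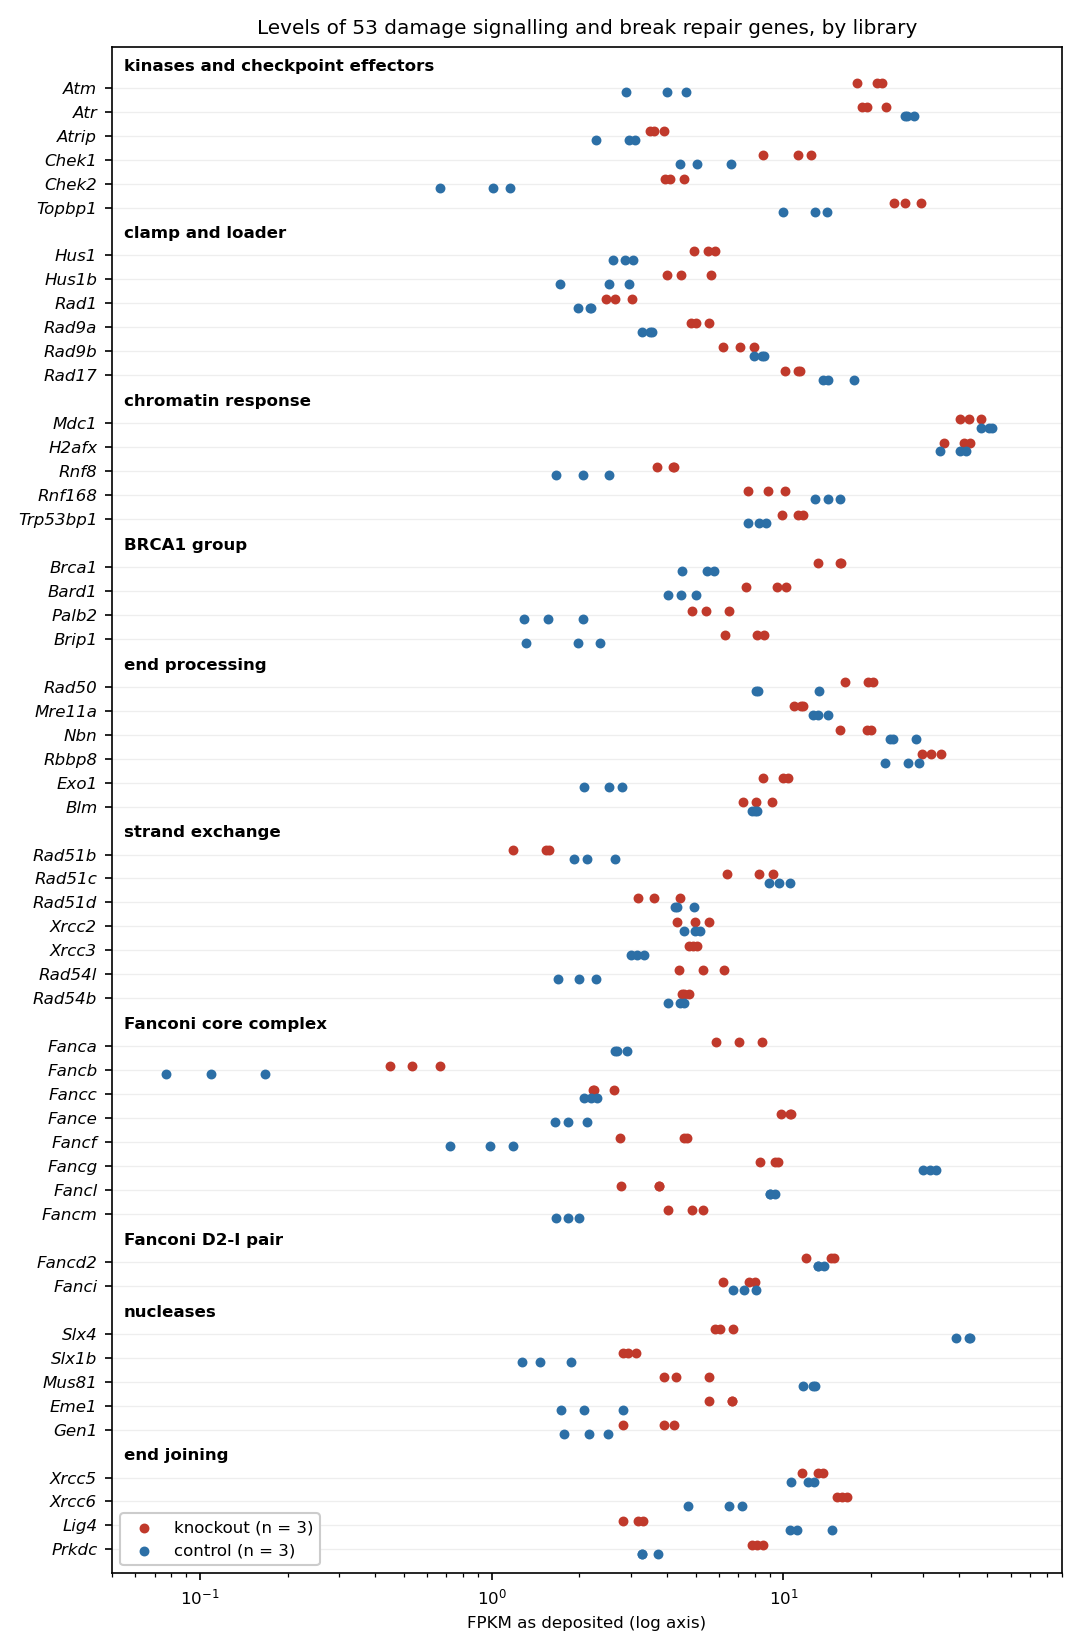
FPKM of each of the 53 genes in each library on a log axis, knockout in red above control in blue, grouped by role. Slx4 lies between 5.81 and 6.72 FPKM in the knockout libraries and between 39.0 and 43.6 FPKM in the controls, while Atm lies between 17.9 and 21.8 FPKM in the knockout libraries and between 2.89 and 4.62 FPKM in the controls.

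Promoter windows of 300 bases were taken from RefSeq for build GRCm38.p6, from 250 bases before to 50 after each RefSeq start, in 47 windows of 42 of the genes; Rad9a, Exo1, Rbbp8, H2afx, Rad50, Rad51d, Xrcc2, Fancd2, Rad54b, Prkdc and Nbn had none. The windows of Atm and Fance, the genes with the largest rises, of Chek2, and of Slx4 and Fancg, which fell under every scaling, are shown 5′ to 3′ on the gene's strand. The windows of Lig4, which also fell under every scaling, held none of the motifs searched and are not shown. Capitals mark matches to CCAAT, the NF-Y motif, and to TTTCCCGC, an E2F motif, on either strand.
Atm (chr9:53536622-53536921, minus strand): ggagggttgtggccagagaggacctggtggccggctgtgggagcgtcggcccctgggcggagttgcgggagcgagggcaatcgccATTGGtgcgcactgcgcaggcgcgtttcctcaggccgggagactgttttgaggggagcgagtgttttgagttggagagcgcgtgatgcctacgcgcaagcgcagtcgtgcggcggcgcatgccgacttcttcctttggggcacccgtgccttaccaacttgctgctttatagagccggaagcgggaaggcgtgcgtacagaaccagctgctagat
Fance (chr17:28313280-28313579, plus strand): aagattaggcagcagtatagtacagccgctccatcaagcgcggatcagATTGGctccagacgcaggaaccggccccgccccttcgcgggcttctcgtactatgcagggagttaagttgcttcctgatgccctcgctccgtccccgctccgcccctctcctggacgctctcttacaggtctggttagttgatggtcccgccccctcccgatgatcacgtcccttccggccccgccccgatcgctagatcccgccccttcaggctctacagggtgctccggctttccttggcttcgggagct
Chek2 (chr5:110839733-110840032, plus strand): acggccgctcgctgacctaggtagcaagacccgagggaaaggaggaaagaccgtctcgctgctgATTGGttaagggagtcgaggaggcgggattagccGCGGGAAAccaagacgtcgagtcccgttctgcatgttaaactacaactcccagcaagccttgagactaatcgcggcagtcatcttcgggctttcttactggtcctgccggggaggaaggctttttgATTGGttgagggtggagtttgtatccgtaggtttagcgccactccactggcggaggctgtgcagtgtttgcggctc
Slx4 (chr16:4001629-4001928, minus strand): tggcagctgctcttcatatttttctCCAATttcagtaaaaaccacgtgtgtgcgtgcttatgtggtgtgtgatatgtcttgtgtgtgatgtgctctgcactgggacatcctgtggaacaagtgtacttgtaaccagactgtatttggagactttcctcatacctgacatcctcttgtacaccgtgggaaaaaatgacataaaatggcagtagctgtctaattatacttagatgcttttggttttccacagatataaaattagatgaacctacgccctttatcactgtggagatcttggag
Fancg (chr4:43010252-43010551, minus strand): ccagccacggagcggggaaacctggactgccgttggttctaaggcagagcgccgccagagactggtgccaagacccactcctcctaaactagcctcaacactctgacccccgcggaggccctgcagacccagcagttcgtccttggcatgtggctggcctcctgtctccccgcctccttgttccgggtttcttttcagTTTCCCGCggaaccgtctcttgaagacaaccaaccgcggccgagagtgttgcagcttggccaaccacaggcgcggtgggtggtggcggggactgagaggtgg

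The start that RefSeq gives for Slx4 lies inside the gene span of the deposited table, which runs from 3979105 to 4003770, so the shown window is that of an internal start. CCAAT was found in 26 of the 47 windows, 55.3%, and in 37.4% of the 32851 windows of all genes. It was in the windows of 15 of the 23 genes that rose and had a window, of 2 of 9 that fell and of 6 of 9 that did not pass. The E2F motifs searched were TTTGGCGC, TTTCCCGC and TTTCGCGC; at least 1 was in 17% of the group's windows and in 1.84% of all windows, and the 7 genes were Bard1, Chek2, Fancg, Mdc1, Rad51c, Topbp1 and Xrcc6. These 7 included 4 that rose, Fancg, which fell, and 2 that did not pass. TAACNG, a MYB motif, was in 10.6% of the group's windows and 23.3% of all windows, and TGACGTCA, the CREB and CREM motif, in 2.13% and 1.79%. The median GC content of the group's windows was 60.0%, against 52.7% for all windows. A match is a run of letters, and binding was not measured.

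Among the kinases that start and carry the signal and the partners of ATR, 5 of 6 genes rose and Atr fell on the deposited scale. Of all genes tested 36.2% rose and 50.4% fell on that scale. Atm (ENSMUSG00000034218, chr9:53439149-53536740 in mm10), the kinase activated at unprocessed ends, rose most of the 52 genes. It had 17.9, 20.9 and 21.8 FPKM in the knockout, against 2.89, 4.62 and 4.0 FPKM in the control. Every knockout library was above every control library, and the log2 fold change was 2.27 ± 0.167 (SE) with an adjusted p of 4.6e-06, higher than 98.0% of all genes tested. Atr (ENSMUSG00000032409, chr9:95857597-95951781), the kinase activated on single-stranded DNA and on unpaired meiotic chromosomes, had 18.6, 22.5 and 19.3 FPKM in knockout libraries and 26.0, 27.9 and 26.4 FPKM in control libraries. The groups did not overlap, and its log2 fold change of -0.41 ± 0.1 (adjusted p 0.0053) was the same as the median of all genes and turned to 0.77, 0.60 and 0.49 under the rescaled, quantile and read-total scales. The ratio of Atr to Atm within a library does not depend on the library's divisor, and it averaged 0.999 in the knockout and 7.21 in the controls.

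Chek2 (chr5:110839979-110874145), the effector kinase downstream of ATM, rose from a low level. It had 4.08, 3.94 and 4.57 FPKM in knockout libraries, against 0.664, 1.01 and 1.16 FPKM in control libraries, and these control values rest on 20, 40 and 43 reads. Its log2 fold change was 1.71 ± 0.171 (adjusted p 2.9e-05), with no overlap between the groups. Chek1, the effector kinase downstream of ATR, had 8.52, 11.2 and 12.4 FPKM in the knockout, against 5.07, 6.62 and 4.41 FPKM in the control. Again no libraries overlapped, and it rose by 0.94 ± 0.184 on the log2 scale (adjusted p 0.0016). Topbp1, which activates ATR, had 24.0, 29.6 and 26.0 FPKM in knockout libraries and 10, 14.1 and 12.8 FPKM in control libraries, so that all knockout libraries were higher (log2 fold change 1.09 ± 0.144, adjusted p 0.00015). Atrip, the partner that brings ATR to DNA, had 3.60, 3.91 and 3.48 FPKM in knockout libraries, against 2.95, 3.11 and 2.28 FPKM in control libraries. Its rise of 0.35 ± 0.142 was near the threshold, at an adjusted p of 0.047, and did not pass without knockout replicate 1, 2 or 3 (adjusted p of 0.092, 0.15 and 0.082) or without control replicate 3 (0.12), nor with a pseudocount of 0.1 FPKM (0.056) or with no filter on low values (0.066). Atrip shares 16.0% of its exonic bases with Trex1 on the same strand, so reads of the 2 genes can be mixed.

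The checkpoint clamp is a ring of RAD9, HUS1 and RAD1 that RAD17 loads beside a break, and mouse germ cells also have the paralogs RAD9B and HUS1B. In this class 3 of 6 genes rose and Rad17 fell on the deposited scale, where 36.2% and 50.4% of all genes tested did. All 6 were called higher on each of the other 3 scales, where 54.2%, 52.1% and 50.6% of all genes were. Rad9a had 4.83, 5.02 and 5.57 FPKM in the knockout, against 3.55, 3.27 and 3.49 FPKM in the control, and rose (log2 fold change 0.52 ± 0.113, adjusted p 0.0028). Its paralog Rad9b had 6.21, 7.94 and 7.07 FPKM in knockout libraries and 8.60, 7.93 and 8.43 FPKM in control libraries. These groups overlapped, and the log2 fold change of -0.23 ± 0.116 did not pass (adjusted p 0.10), while on the other 3 scales Rad9b was called higher, at 0.93, 0.41 and 0.64. Rad9b remained the higher of the 2 paralogs in each library, at 1.38 times Rad9a on average in the knockout and 2.42 times in the controls. Rad9b shares 23.2% of its exonic bases with Pptc7 on the opposite strand, and the strand setting of the counts is not known.

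Hus1 had 4.92, 5.82 and 5.52 FPKM in knockout libraries, against 2.87, 3.06 and 2.60 FPKM in control libraries, a rise of 0.82 ± 0.122 on the log2 scale (adjusted p 0.00031). Hus1b, an intronless paralog, had 4.44, 5.66 and 3.99 FPKM in the knockout, against 2.52, 2.95 and 1.71 FPKM in the control. It rose by 0.86 ± 0.202 (adjusted p 0.0042), all knockout libraries being higher, and the ratio of Hus1b to Hus1 was 0.866 in the knockout and 0.833 in the controls with overlapping groups. Rad1, the remaining subunit, averaged 2.71 ± 0.290 FPKM in the knockout and 2.11 ± 0.128 FPKM in the controls (SD, n = 3 each) and did not pass at an adjusted p of 0.068. Rad1 was called higher on the other 3 scales, at 1.45, 1.32 and 1.06, and passed with size factors from the genes tested (adjusted p 0.04) and without the mean-variance trend (0.042). Rad17 averaged 10.9 ± 0.691 FPKM in the knockout and 15.1 ± 1.99 FPKM in the controls, and its log2 fold change of -0.45 (adjusted p 0.0070) became 0.71, 0.28 and 0.44 under the rescaled, quantile and read-total scales.

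Of 5 genes whose proteins assemble on chromatin around a break, 2 rose and 1 fell on the deposited scale. On that scale 36.2% of all genes tested rose and 50.4% fell. The rescaled scale gave 5 higher and 0 lower, and the quantile and read-total scales 4 higher and 0 lower. The shares of all genes on those 3 scales were 54.2%, 52.1% and 50.6% higher, and 36.2%, 36.8% and 38.9% lower. H2afx, which encodes the histone variant H2AX, had 43.5, 41.6 and 35.4 FPKM in knockout libraries and 34.3, 42.3 and 40.4 FPKM in control libraries. The groups overlapped, and the log2 fold change was 0.04 ± 0.118 (adjusted p 0.75). On the other 3 scales H2afx was called higher, at 1.23, 1.33 and 0.95. Mdc1, the reader of phosphorylated H2AX, had 43.1, 47.5 and 40.4 FPKM in knockout libraries, against 50.5, 47.6 and 52 FPKM in control libraries, and its log2 fold change of -0.20 ± 0.0918 did not pass (adjusted p 0.076). Without knockout replicate 2 Mdc1 passed as lower, at -0.26 and an adjusted p of 0.048, while on the rescaled, quantile and read-total scales it rose by 0.99, 1.16 and 0.72.

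Of the ubiquitin ligases that act after MDC1, one rose and the other fell on the deposited scale. Rnf8, which acts first, had 4.17, 4.23 and 3.68 FPKM in the knockout, against 1.66, 2.06 and 2.53 FPKM in the control, and rose by 0.82 ± 0.158 (adjusted p 0.0014). In GENCODE M21, where its length differs from the deposited one, Rnf8 shares 13.2% of its exonic bases with Gm28043 on the same strand. Its values may include reads of that gene. Rnf168, which extends the ubiquitin mark, had 7.57, 8.88 and 10.1 FPKM in knockout libraries and 14.2, 15.6 and 12.8 FPKM in control libraries. All its control libraries were higher; it fell by 0.66 on the log2 scale (adjusted p 0.0016), but its log2 fold change was 0.49, 0.03 and 0.22 on the rescaled, quantile and read-total scales, with a call, as higher, on the first of these alone. The ratio of Rnf168 to Rnf8 was 2.22 in the knockout and 7.05 in the controls. Trp53bp1, whose protein 53BP1 binds that mark and shields ends from trimming, had 9.87, 11.7 and 11.2 FPKM in knockout libraries, against 8.27, 8.69 and 7.57 FPKM in control libraries, a rise of 0.39 ± 0.108 (adjusted p 0.0090) with no overlap.

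All 4 genes of the BRCA1 group rose on the deposited scale, where 36.2% of all genes tested did. Their median log2 fold change was 1.47, against -0.41 over all genes tested. These 4 genes also rose under the other scalings, which raise the median of all genes and could hardly undo a rise. Brca1 (chr11:101488764-101551955), which promotes repair by recombination, had 13.1, 15.8 and 15.6 FPKM in the knockout, against 4.48, 5.48 and 5.77 FPKM in the control. Each knockout library lay well above each control library, giving a log2 fold change of 1.42 ± 0.130 (adjusted p 1.7e-05). Bard1, the partner with which BRCA1 forms a ubiquitin ligase, had 7.45, 9.53 and 10.2 FPKM in knockout libraries and 4.01, 4.45 and 5.01 FPKM in control libraries, a smaller rise of 0.93 ± 0.146 (adjusted p 0.00043). The ratio of Bard1 to Brca1 was 0.609 in the knockout and 0.858 in the controls, and those groups did not overlap. Brip1, the helicase that binds BRCA1, had 6.32, 8.57 and 8.11 FPKM in knockout libraries, against 1.31, 2.35 and 1.98 FPKM in control libraries, the largest rise of the 4 at 1.79 ± 0.198 (adjusted p 5.2e-05). Palb2, which links BRCA1 to BRCA2, averaged 5.59 ± 0.837 FPKM in the knockout and 1.63 ± 0.387 FPKM in the controls (log2 fold change 1.52, adjusted p 6.8e-05).

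In the complex that first binds ends, Rad50 rose, Nbn fell on the deposited scale and Mre11a did not pass. Rad50, its ATPase, had 16.2, 19.5 and 20.3 FPKM in the knockout, against 13.2, 8.19 and 8.05 FPKM in the control. Control replicate 1 stood above the other controls, yet below every knockout library, and the rise was 0.92 ± 0.194 (adjusted p 0.0023). Mre11a, its nuclease, had 10.9, 11.5 and 11.7 FPKM in knockout libraries and 13.1, 12.6 and 14.2 FPKM in control libraries, and did not pass (log2 fold change -0.22 ± 0.0922, adjusted p 0.056). Nbn, the subunit that binds ATM, had 15.6, 19.9 and 19.4 FPKM in knockout libraries, against 28.4, 23.2 and 23.8 FPKM in control libraries, and fell by 0.45 (adjusted p 0.010). On the rescaled, quantile and read-total scales Mre11a and Nbn both rose, by 0.95, 0.51 and 0.67 for Mre11a and by 0.72, 0.51 and 0.45 for Nbn. Rad50 was at 1.64 times Mre11a in the knockout and 0.739 times in the controls.

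Further trimming of ends is done by CtIP, EXO1 and BLM. Exo1, an exonuclease that also acts in meiotic crossing over, had 8.49, 9.96 and 10.4 FPKM in the knockout, against 2.07, 2.52 and 2.80 FPKM in the control. The groups were well apart, with a log2 fold change of 1.77 ± 0.139 (adjusted p 6.9e-06). Blm, a helicase that also unwinds joined DNA molecules, had 7.27, 9.12 and 8.08 FPKM in knockout libraries and 7.99, 8.09 and 7.81 FPKM in control libraries, with overlap and a log2 fold change of 0.03 ± 0.111 (adjusted p 0.82), though Blm was called higher on the other 3 scales at 1.19, 0.68 and 0.89. Rbbp8, the gene of CtIP, averaged 32.1 ± 2.45 FPKM in the knockout and 26.0 ± 3.42 FPKM in the controls. Its rise of 0.30 ± 0.119 was near the threshold (adjusted p 0.041) and did not pass without knockout replicate 2 or 3 (0.13 and 0.087) or without control replicate 2 or 3 (0.069 and 0.12), nor with no filter on low values (0.067) or without the mean-variance trend (0.067).

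A further class holds mediators of strand exchange and the RAD54 proteins, which remodel DNA during it. Of these 7 genes 2 rose, 1 fell and 4 did not pass on the deposited scale. On that scale 36.2% of all genes tested rose and 50.4% fell. On the rescaled and quantile scales 7 were called higher, and on the read-total scale 6, with 0 lower on each. The shares of all genes on those 3 scales were 54.2%, 52.1% and 50.6% higher, and 36.2%, 36.8% and 38.9% lower. Rad51c, found in both mediator complexes, had 6.39, 9.24 and 8.26 FPKM in knockout libraries, against 9.63, 8.92 and 10.5 FPKM in control libraries. The groups overlapped and the log2 fold change was -0.28 ± 0.146 (adjusted p 0.11), though without knockout replicate 2 it passed at -0.39 (adjusted p 0.047), and on the other 3 scales Rad51c was called higher at 0.88, 0.38 and 0.59. Xrcc3, which pairs with RAD51C, had 4.91, 4.74 and 5.07 FPKM in the knockout, against 3.15, 3.32 and 3.01 FPKM in the control, and rose by 0.56 ± 0.109 (adjusted p 0.0015). Xrcc2, of the other complex, had 4.32, 5.56 and 4.98 FPKM in knockout libraries and 4.55, 4.99 and 5.18 FPKM in control libraries. Its groups overlapped, and the log2 fold change was 0.01 ± 0.127 (adjusted p 0.95), against calls as higher at 1.16, 0.67 and 0.84 on the other 3 scales. Rad51d averaged 3.73 ± 0.629 FPKM in the knockout and 4.49 ± 0.383 FPKM in the controls and did not pass (adjusted p 0.14), with calls as higher at 0.88, 0.43 and 0.57 on the other 3 scales. Rad51b, which joins RAD51C in a complex, averaged 1.43 ± 0.216 FPKM in the knockout and 2.23 ± 0.377 FPKM in the controls; its log2 fold change of -0.50 (adjusted p 0.022) did not pass without knockout replicate 1 (0.082) and was 0.50, 0.62 and 0.22 on the rescaled, quantile and read-total scales.

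Of the pair of RAD54 genes, Rad54l had 4.38, 5.32 and 6.25 FPKM in knockout libraries, against 1.69, 1.99 and 2.28 FPKM in control libraries, a rise of 1.22 ± 0.163 (adjusted p 0.00016). Rad54b had 4.75, 4.56 and 4.48 FPKM in the knockout, against 4.41, 4.03 and 4.55 FPKM in the control, with overlap and a log2 fold change of 0.08 ± 0.108 (adjusted p 0.51). Rad54b was called higher on the other 3 scales, at 1.23, 0.76 and 0.91. The ratio of Rad54b to Rad54l was 0.886 in the knockout and 2.21 in the controls. Rad54b shares 35.8% of its exonic bases with Fsbp on the same strand, so its values may include reads of that gene.

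Fanconi proteins repair crosslinks between DNA strands: a core complex attaches ubiquitin to FANCD2 and FANCI, which then recruit nucleases. In the core complex 4 of 7 genes tested rose and 2 fell on the deposited scale, where 36.2% and 50.4% of all genes did. On each of the other 3 scales 5 were called higher, with 1 lower on the rescaled and 2 lower on the quantile and read-total scales. The shares of all genes on those 3 scales were 54.2%, 52.1% and 50.6% higher, and 36.2%, 36.8% and 38.9% lower. Fance (chr17:28313519-28326572), the subunit that binds FANCD2, had 10.5, 9.77 and 10.6 FPKM in knockout libraries and 1.65, 2.12 and 1.83 FPKM in control libraries. Its libraries of each group were close together, and the log2 fold change was 2.19 ± 0.120 (adjusted p 8e-07). Fancg (chr4:43002343-43010506), a scaffold of the same complex, had 8.33, 9.56 and 9.33 FPKM in knockout libraries, against 31.8, 30.1 and 33.3 FPKM in control libraries. It fell by 1.75 on the log2 scale (adjusted p 7.2e-07) and by 0.62, 0.93 and 0.86 on the rescaled, quantile and read-total scales.

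Fancl, the ubiquitin ligase subunit, averaged 3.43 ± 0.560 FPKM in the knockout and 9.11 ± 0.203 FPKM in the controls. It fell by 1.30 (adjusted p 3.2e-05), and with FPKM rescaled to sum to 1000000 its value of -0.23 did not pass (adjusted p 0.19). On the quantile and read-total scales Fancl was called lower, at -0.65 and -0.46. Fanca, Fancf and Fancm, an outer subunit, an adaptor and the DNA-binding translocase, rose by 1.21, 1.60 and 1.16 (adjusted p of 9.3e-05, 0.00021 and 9.7e-05). Fancc, the gene of the class with the deposited-scale value nearest to 0, had 2.23, 2.25 and 2.63 FPKM in the knockout, against 2.07, 2.19 and 2.29 FPKM in the control, with overlap (log2 fold change 0.09 ± 0.131, adjusted p 0.51). It was called higher at 1.22, 1.11 and 0.85 on the other 3 scales. Fancb, on the X chromosome, had 0.666, 0.447 and 0.534 FPKM in knockout libraries and 0.167, 0.0766 and 0.109 FPKM in control libraries. These values rest on 43, 27 and 33 reads in the knockout libraries and 5, 3 and 4 in the controls; with no filter on low values its log2 fold change was 0.76 ± 0.140 (adjusted p 0.0034), where 21.6% of all genes were called higher.

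Neither gene of the pair that the core complex modifies passed the test on the deposited scale. Fancd2 had 11.9, 14.5 and 14.9 FPKM in knockout libraries, against 13.8, 13.1 and 13.1 FPKM in control libraries (log2 fold change 0.04 ± 0.110, adjusted p 0.73). Fanci had 6.19, 7.98 and 7.59 FPKM in the knockout, against 8.02, 7.30 and 6.73 FPKM in the control (-0.02 ± 0.128, adjusted p 0.88). Both genes had overlapping groups on the deposited scale, and both were called higher on the other 3 scales, Fancd2 at 1.22, 0.81 and 0.93 and Fanci at 1.14, 0.62 and 0.84. Fanci was at 0.526 times Fancd2 in the knockout and 0.552 times in the controls, with overlap.

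The nucleases that resolve joined DNA molecules held the largest fall of the 52 genes. Slx4 (ENSMUSG00000039738, chr16:3979105-4003770), the scaffold that holds SLX1, MUS81-EME1 and a further nuclease, had 5.81, 6.06 and 6.72 FPKM in knockout libraries and 43.1, 39.0 and 43.6 FPKM in control libraries. No library came near the other group, and it fell by 2.66 on the log2 scale (adjusted p 6.8e-08) and by 1.55, 1.80 and 1.78 on the rescaled, quantile and read-total scales. Mus81 had 3.9, 5.56 and 4.28 FPKM in knockout libraries, against 12.6, 11.7 and 12.8 FPKM in control libraries. All its knockout libraries were lower, and it fell as deposited, with a log2 fold change of -1.36 ± 0.138 (adjusted p 3.2e-05). With FPKM rescaled to sum to 1000000 the value was -0.26 and did not pass (adjusted p 0.12). On the quantile and read-total scales Mus81 was called lower, at -0.71 and -0.5.

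The other 3 nuclease genes rose, where 36.2% of all genes tested did. Eme1, the regulatory subunit of MUS81, averaged 6.30 ± 0.629 FPKM in the knockout and 2.21 ± 0.558 FPKM in the controls and rose by 1.34 (adjusted p 0.00012). Slx1b, the nuclease bound by SLX4, averaged 2.96 ± 0.154 FPKM in the knockout and 1.54 ± 0.305 FPKM in the controls and rose by 0.78 (adjusted p 0.0016). Gen1, a resolvase that works without SLX4, had 2.82, 4.23 and 3.89 FPKM in the knockout, against 1.77, 2.51 and 2.16 FPKM in the control, a rise of 0.64 ± 0.182 (adjusted p 0.011). Within libraries Eme1 was at 1.39 times Mus81 in the knockout and 0.178 times in the controls, and Slx1b at 0.481 times Slx4 in the knockout and 0.0367 times in the controls.

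In end joining, KU70 and KU80 cap the ends and recruit the kinase DNA-PKcs, and ligase IV seals them. Xrcc6, the gene of KU70, had 15.9, 15.3 and 16.5 FPKM in knockout libraries and 4.72, 7.23 and 6.51 FPKM in control libraries, and rose by 1.32 ± 0.152 (adjusted p 6.7e-05). Xrcc5, the gene of KU80, had 11.6, 13.7 and 13.1 FPKM in knockout libraries, against 12.7, 12.1 and 10.6 FPKM in control libraries, which overlap (0.11 ± 0.110, adjusted p 0.36). On the other 3 scales Xrcc5 was called higher, at 1.29, 0.85 and 1.00. The ratio of Xrcc5 to Xrcc6 was 0.805 in the knockout and 2.0 in the controls. Prkdc, the gene of DNA-PKcs, had 7.81, 8.12 and 8.52 FPKM in the knockout, against 3.28, 3.72 and 3.27 FPKM in the control, with no overlap and a rise of 1.14 ± 0.108 (adjusted p 2e-05). Lig4 (chr8:9969049-9977686), the ligase gene, had 2.81, 3.17 and 3.30 FPKM in knockout libraries and 14.7, 10.5 and 11.1 FPKM in control libraries. It fell by 1.80 as deposited (adjusted p 8.8e-06) and by 0.75, 1.14 and 0.96 on the rescaled, quantile and read-total scales, and Lig4 was at 0.379 times Prkdc in the knockout and 3.57 times in the controls.

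Ratios of 14 gene pairs were compared within libraries, where scaling cancels apart from the added 0.5 FPKM. In 12 of the 14 the knockout and control libraries did not overlap, and the exceptions were Hus1b to Hus1 and Fanci to Fancd2. The share over other gene pairs was not measured, and single genes did not overlap in 88.0% of all genes tested. The largest difference was that of Slx1b to Slx4, a log2 ratio of -0.95 ± 0.147 in the knockout and -4.39 ± 0.227 in the controls (SD, n = 3 each). Next came Lig4 to Prkdc, at -1.27 ± 0.0524 in the knockout and 1.67 ± 0.316 in the controls. Eme1 to Mus81 stood at 0.43 ± 0.178 in the knockout and -2.27 ± 0.276 in the controls. Atr to Atm stood at -0.01 ± 0.149 in the knockout and 2.67 ± 0.259 in the controls, and Rad9b to Rad9a at 0.42 ± 0.165 in the knockout and 1.16 ± 0.00365 in the controls. With 3 libraries against 3, the smallest p that a two-sided exact permutation test can give is 0.1; the 12 pairs gave that value, or 0.117 when adjusted over the 14 pairs, so none could pass 0.05. Hus1b to Hus1 gave 0.70 and Fanci to Fancd2 0.30 by the same exact permutation test.

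**Figure D4:**
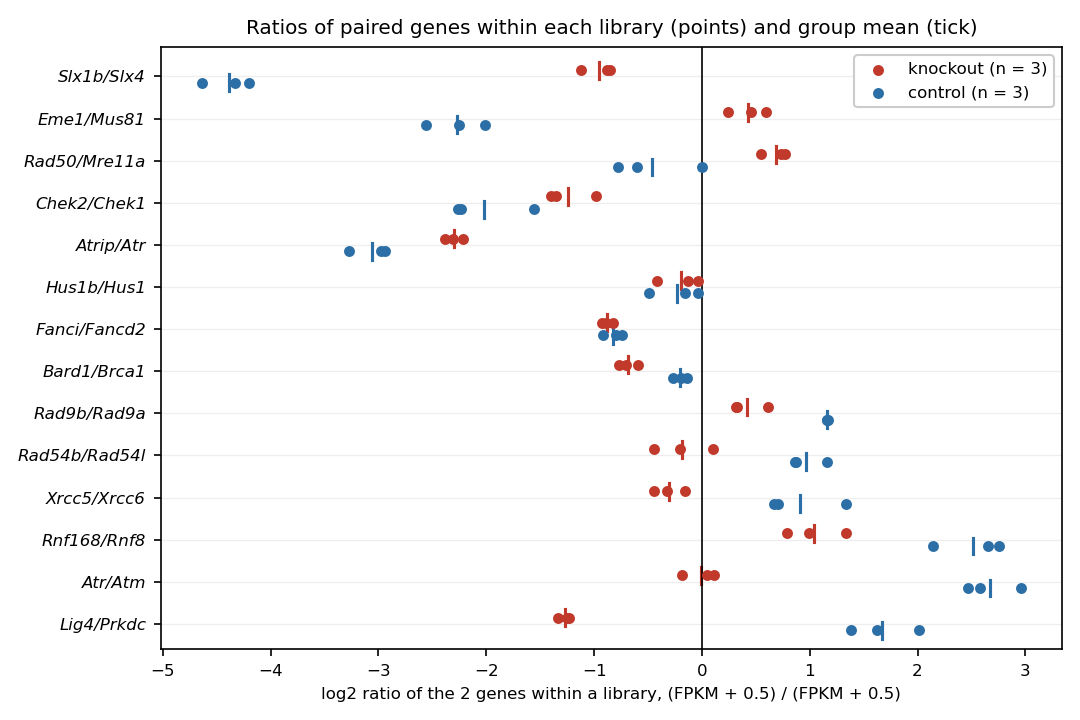
Log2 ratio of (FPKM + 0.5) of 14 gene pairs within each library, knockout in red above control in blue, with the group mean as a tick, ordered by the difference of knockout minus control. The libraries of the groups overlap only for Hus1b/Hus1 and Fanci/Fancd2, and Atr/Atm lies around 0 in the knockout and between 2.47 and 2.96 in the controls.

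A wider list of 88 genes of the same pathways, none of them among the 53, was measured for comparison, and 85 passed the filter. Of these 41 rose and 33 fell on the deposited scale, where 36.2% and 50.4% of all genes did. The 85 genes had a median log2 fold change of 0.14, against -0.41 over all genes tested. Rescaled FPKM gave 61 higher and 14 lower, where 54.2% and 36.2% of all genes were. On that scale the median was 1.33, against 0.71 over all genes tested. Quantile normalization gave 54 and 20, where 52.1% and 36.8% were, and read totals 55 and 18, where 50.6% and 38.9% were. Under every scaling 41 rose and 14 fell, where 36.2% and 34.2% of all genes did. The 3 rises of smallest p were Rfc5, a clamp loader subunit, Recql4, a helicase, and Rpa2, which coats single-stranded DNA, with log2 fold changes of 1.92, 2.03 and 1.77. The 3 falls of smallest p were Ppm1d, a phosphatase that switches off damage signalling, Usp1, which removes ubiquitin from FANCD2, and Mad2l2, an adaptor of shieldin and of translesion polymerase. Ppm1d had 17.9, 19.1 and 19.3 FPKM in knockout libraries, against 198.6, 166.0 and 164.4 FPKM in control libraries. Usp1 had 25.4, 31.4 and 30.9 FPKM in the knockout, against 352.0, 279.6 and 279.0 FPKM in the control. Mad2l2 had 6.41, 9.14 and 7.86 FPKM in knockout libraries and 115.9, 89.7 and 103.3 FPKM in control libraries. As deposited, each of these 3 fell by more than any of the 53 genes did, with log2 fold changes of -3.19, -3.35 and -3.64. All 6 of these named genes kept their call under each scaling, though nearly every rise among all genes did so.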

How the data were processed

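RNA was sequenced from testis cells labelled STRA8+, 3 conditional knockout and 3 Cre control libraries, grouped and numbered by the labels' titles; the labels' extraction text speaks of retinas. The submitters' processing notes name HISAT2 2.0.5 and mm10. How reads were counted, and whether by strand, is not given in the sources used here, which leaves overlapping genes uncertain. Values were deposited as FPKM. FPKM times gene length gave whole reads within 0.01 read for 100% of nonzero values, and the divisor matched a size factor taken from the 19526 genes detected in all libraries. Tests ran in limma 3.58.1 (R 4.3.3), taking log2(FPKM + 0.5), with a mean-variance trend and Benjamini-Hochberg adjustment. A trial of the fit on simulated data changed few genes and scaled libraries by their totals of reads. The deposited data differ in both respects, so the trial cannot vouch for the calls given here. Intervals of counts are not given; reads carry no molecular identifiers. Ratios used exact permutation tests. Coordinates are 1-based; 50 of the 53 genes have the same coordinates in GENCODE M21. The genes, their classes, lists and tests were chosen with earlier results of these data known. Genes with all 6 values are a fixed set plus, per class, the 2 of smallest p and the 1 nearest to no change. Alternatives covered pseudocounts, filters, scalings, no trend, limma voom on recovered reads, the replicate number as a block and leaving out each library. Python 3.11.15, numpy 2.4.6, pandas 2.3.3 and matplotlib 3.10.9 made tables and figures.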

Additional observations from a re-analysis of the deposited data

How the results depend on the processing

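Scaling moved the counts of calls. Of the 53 genes, 47 were called higher and 3 lower on FPKM rescaled to a sum of 1000000, 46 and 5 with quantile normalization and 45 and 5 when each library was divided by its total of reads, against 28 and 10 as deposited. Filtering at 5 FPKM left 30 of the genes, of which 12 rose and 9 fell. It left 9583 genes in all, of which 3227 rose and 5320 fell. With no filter 8057 of 37309 genes rose and 12226 fell. Genes that turned positive had log2 fold changes, on the rescaled, quantile and read-total scales in that order, of 0.77, 0.60 and 0.49 (Atr), 0.93, 0.41 and 0.64 (Rad9b), 0.71, 0.28 and 0.44 (Rad17), 0.99, 1.16 and 0.72 (Mdc1), 0.49, 0.03 and 0.22 (Rnf168), 0.95, 0.51 and 0.67 (Mre11a), 0.72, 0.51 and 0.45 (Nbn), 0.50, 0.62 and 0.22 (Rad51b), 0.88, 0.38 and 0.59 (Rad51c), 0.88, 0.43 and 0.57 (Rad51d) and 1.14, 0.62 and 0.84 (Fanci, also 0.02 with size factors from the genes tested). Leaving out 1 library gave 26 to 28 of the genes higher and 9 to 12 lower, 5749 to 5934 of all genes higher and 8270 to 8373 lower. It turned the sign of genes near 0, with ranges of -0.05 to 0.13 for H2afx, -0.05 to 0.10 for Blm, -0.07 to 0.09 for Xrcc2, -0.02 to 0.14 for Fancd2 and -0.09 to 0.08 for Fanci, and the Hus1b to Hus1 difference ranged from -0.10 to 0.15. No other pair changed direction. Of the 52 genes tested, 29 kept their direction and side of the threshold in every setting that tested them. The share of all genes that did so was not counted. The labels do not say that replicate numbers pair the libraries. Deviations of same-numbered libraries from their group means had r of -0.122, -0.053 and -0.04. Those of differently numbered libraries had r of -0.055 to 0.095. With 3 libraries per group, these values cannot show whether a number marks a pairing. With the replicate block 26 of the genes rose and 9 fell, where 5930 and 8364 of the 16791 genes tested did. Atrip, Rbbp8 and Rad51b did not pass with that block. Atrip also did not pass with a pseudocount of 0.1 FPKM, nor Rbbp8 without the trend, nor either with no filter. Voom on the recovered reads gave 28 and 10, where 6003 and 8448 of all genes tested were called. Depth limits Fancb, with 3 to 5 control reads in a library.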
